A study of Mus musculus with 6 samples.

Results

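Integrins, laminins and the dystrophin complex are described here as the 40 genes that a naming pattern selected from the 21959 genes of the table. The pattern took the numbered integrin alpha subunits with Itgav and Itga2b (13 genes), the integrin beta subunits (8), the laminin alpha (5), beta (3) and gamma (3) chains, and 8 genes of the dystrophin complex, namely dystroglycan (Dag1), 5 sarcoglycans, dystrophin (Dmd) and utrophin (Utrn). The pattern reads gene names only. Poly(A) RNA was read from 6 libraries of wild type mouse cells labelled HL-1, a line derived from atrial heart muscle, and all 6 carried 1 batch label. In 3 libraries the cells had oxygen-glucose deprivation and reoxygenation (OGD/R), which imitates ischemia followed by reperfusion in a dish, together with phillyrin. Phillyrin, a lignan glucoside of Forsythia, was given at 50 µg/mL for 8 h beforehand and for 16 h alongside OGD/R. The other 3 libraries came from cells with OGD/R alone. For all of them OGD/R meant 4 h without oxygen and glucose and 24 h of recovery in full medium, and how the 16 h with phillyrin fall within these times is not said. Below, "with phillyrin" means OGD/R + phillyrin. No vehicle samples were analysed here, so the compound and its solvent cannot be told apart.

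Integrins are receptors made of an alpha and a beta subunit that join the matrix outside a cell to actin inside it, and the alpha subunit largely sets the ligand. Laminins are trimers of an alpha, a beta and a gamma chain and build the basement membrane that surrounds each muscle fibre. Muscle holds that sheet by integrins and by the dystrophin complex, in which dystroglycan binds laminin, sarcoglycans steady the complex in the membrane, and dystrophin or its homologue utrophin links it to actin. Loss of the laminin chain Lama2, of Itga7, of a sarcoglycan or of dystrophin causes muscle disease in humans.

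Library totals lay between 14761317 and 22123648 counts. The labelled cell type was checked against 13 cardiac markers, of which 8 were below 0.5 CPM (counts scaled to a common library total) in every library, among them Myh6 with no count, Actc1 and Myl7 with 1 count each and Nppa with 2. These transcripts of atrial muscle were thus absent or nearly so in cells of that label. The cardiac markers summed to 184 to 199 CPM with phillyrin and 154 to 156 CPM with OGD/R alone, most of it Tnnt2. Of 10 skeletal muscle markers 4 were below 0.5 CPM in every library, with Myh8 at 0, and their sum was 417 to 441 CPM with phillyrin and 446 to 468 CPM with OGD/R alone. Among them the acetylcholine receptor subunit Chrna1 had 262, 283 and 267 CPM with phillyrin and 306, 309 and 299 CPM with OGD/R alone. The myogenic factors Myf5 and Myod1 differed in direction. Myf5 averaged 52.5 ± 2.76 CPM with phillyrin and 64.2 ± 3.65 CPM with OGD/R alone. Myod1 averaged 97.2 ± 4.09 CPM with phillyrin and 83.2 ± 2.18 CPM with OGD/R alone (SD, n = 3 each). Other skeletal muscle markers were scarce: over all 6 libraries Pax3 had 2 counts, Myf6 20, Myh3 34 and Myog 45. Group means of Pax7 and Acta1 lay between 1.48 and 3.17 CPM. Endothelial markers (4 of 6 below 0.5 CPM, Kdr and Tie1 at 0) summed to 0.904 to 1.35 CPM with phillyrin and 0.811 to 1.11 CPM with OGD/R alone. Leukocyte markers (5 of 7 below 0.5 CPM, Itgam and Adgre1 at 0) summed to 3.02 to 4.80 CPM with phillyrin and 2.68 to 3.30 CPM with OGD/R alone, most of it Cd68. Epithelial markers (5 of 6 below 0.5 CPM, Epcam and Krt5 at 0) summed to 25.3 to 27.8 CPM with phillyrin and 14.9 to 16.8 CPM with OGD/R alone, nearly all of it Krt14. Schwann and neural markers (3 of 5 below 0.5 CPM, Sox10 at 0) summed to 18.8 to 23.8 CPM with phillyrin and 37.6 to 38.5 CPM with OGD/R alone, most of it Ngfr. Fibroblast markers (2 of 5 below 0.5 CPM, Lum at 0) summed to 258 to 266 CPM with phillyrin and 274 to 279.8 CPM with OGD/R alone, nearly all of it Col1a1. In that list Pdgfra averaged 11.5 ± 0.675 CPM with phillyrin and 19.3 ± 0.697 CPM with OGD/R alone. Dcn averaged 5.26 ± 0.950 CPM with phillyrin and 4.74 ± 0.416 CPM with OGD/R alone (SD, n = 3 each). The part of these markers in the results below was not tested. In bulk RNA, fewer cells that express a gene and less RNA per cell cannot be told apart.

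Levels of different genes were compared per gene length, as FPKM (counts per kilobase of gene, scaled to the library total). Itgb1, the beta subunit shared by most matrix-binding integrins, stood far above all others, at 335 ± 2.36 FPKM with phillyrin and 272 ± 0.926 FPKM with OGD/R alone (SD, n = 3 each, as for every FPKM below). Itga5, the alpha subunit of the fibronectin receptor, came next with 83.0 ± 3.80 FPKM with phillyrin and 72.6 ± 3.19 FPKM with OGD/R alone. Itga7, the laminin-binding alpha subunit typical of muscle, had 57.7 ± 2.59 FPKM with phillyrin and 66.7 ± 1.59 FPKM with OGD/R alone. Per gene length, both alpha subunits thus lay above every other alpha subunit in both groups. Behind them came Itga6, another laminin-binding subunit, with 38.1 ± 0.508 FPKM with phillyrin and 41.1 ± 1.23 FPKM with OGD/R alone. The order differed in shares of the alpha subunits' read counts, where Itga7 led with 27.6% with phillyrin and 30.0% with OGD/R alone. On that scale Itga5 took 24.1% with phillyrin and 19.8% with OGD/R alone, and Itga6 20.5% and 20.8%. Itgav, which pairs with several beta subunits and binds ligands with an RGD motif such as vitronectin, had 30.5 ± 0.935 FPKM with phillyrin and 31.5 ± 1.26 FPKM with OGD/R alone. Itga3, the third laminin-binding subunit, had 23.9 ± 0.673 FPKM with phillyrin and 32.5 ± 0.437 FPKM with OGD/R alone, so that in OGD/R libraries it and Itgav lay within their spread of each other. Few reads were counted for the collagen-binding subunits. Itga1, Itga2, Itga10 and Itga11 together made up 0.104% of the alpha subunits' FPKM sum with phillyrin and 0.0818% with OGD/R alone. Itga1 overlaps Gm49395 and Pelo on its own strand, and Itga10 overlaps Gm42957 on its own. How reads over overlapping genes were assigned is not given in the sources used here, so low counts of Itga1 and Itga10 were not read as absence.

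Among the laminins the beta chain Lamb1 and the gamma chain Lamc1 exceeded every alpha chain per length. Lamb1 stood at 56.9 ± 0.293 FPKM with phillyrin and 56.4 ± 1.04 FPKM with OGD/R alone, and Lamc1 at 42.2 ± 0.422 FPKM with phillyrin and 47.5 ± 0.224 FPKM with OGD/R alone. Lama5, an alpha chain found in most adult basement membranes, led its class with 17.4 ± 1.39 FPKM with phillyrin and 22.4 ± 1.03 FPKM with OGD/R alone. Lama2, the alpha chain of mature muscle, stood at 5.96 ± 0.0684 FPKM with phillyrin and 6.09 ± 0.105 FPKM with OGD/R alone. Lamb3, a beta chain typical of epithelia, stood at 3.37 ± 0.103 FPKM with phillyrin and 3.33 ± 0.0615 FPKM with OGD/R alone, whereas Lama3, an alpha chain of epithelia, had 75 counts over all 6 libraries. Lama1, an embryonic chain, had no count, which allows up to 0.0269 CPM over the 111513800 counts of all libraries.

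In the dystrophin complex the 2 actin linkers were far apart. Dmd had 0, 0 and 0 counts in the phillyrin libraries and 0, 1 and 0 in the OGD/R libraries. Utrn stood at 21.1 ± 0.496 FPKM with phillyrin and 19.8 ± 0.296 FPKM with OGD/R alone, near Dag1 at 23.8 ± 0.320 FPKM with phillyrin and 27.0 ± 0.703 FPKM with OGD/R alone. Of the sarcoglycans, Sgcb had 19.0 ± 1.92 FPKM with phillyrin and 18.4 ± 0.307 FPKM with OGD/R alone. Sgce, the widely expressed relative of Sgca, stood at 5.26 ± 0.0761 FPKM with phillyrin and 5.23 ± 0.0526 FPKM with OGD/R alone. Sgca, the muscle form, stood at 4.37 ± 0.263 FPKM with phillyrin and 3.61 ± 0.579 FPKM with OGD/R alone, whereas Sgcd stood at 0.245 ± 0.0363 FPKM with phillyrin and 0.218 ± 0.0135 FPKM with OGD/R alone.

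**Figure D1:**
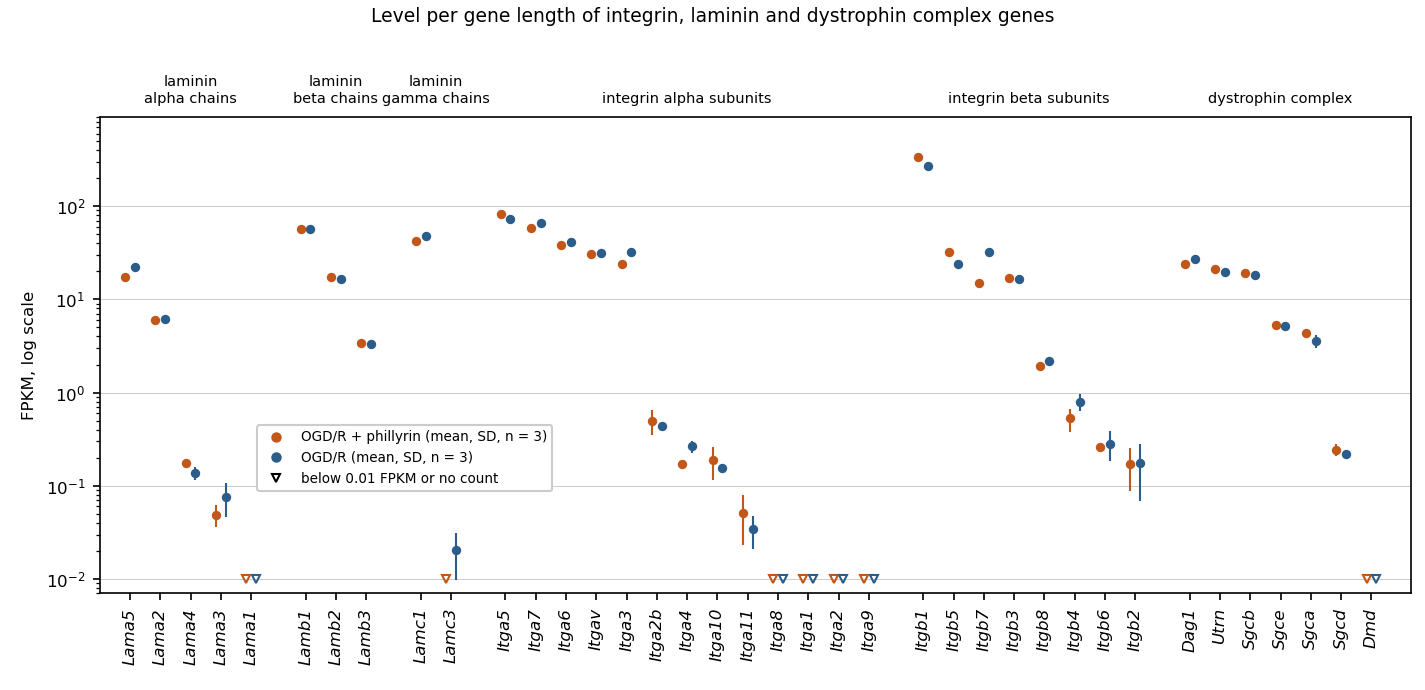
Mean FPKM on a log scale (points, with SD bars, n = 3) of the genes reported, in OGD/R + phillyrin (orange) and OGD/R (blue) libraries, by class and in order of level, with open triangles for values too low for the axis. Itgb1 lies above every other gene, at 335 FPKM with phillyrin and 272 FPKM with OGD/R alone, and Dmd, Lama1 and Itga9 lie at the foot of the plot.

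Differences of these genes between OGD/R with and without phillyrin were tested with edgeR's quasi-likelihood test, adjusted over all 11658 genes tested. Fold changes are given as log2 ratios of OGD/R + phillyrin over OGD/R. Of the 40 genes 31 had enough counts to be tested. Among the 9 left out were Lama1, Lamc3, Itga1, Itga2, Itga8, Itga9, Itga11 and Dmd, of which Lama1 and Itga9 had no count in any library. With phillyrin 5 of the 31 rose and 8 fell (41.9% called), where 31.7% of all genes tested were called, 1871 higher and 1823 lower. Scaled by library totals only, the whole table gave 1313 higher and 2455 lower, and of the 31 genes 4 were higher and 9 lower. In each direction, 16.1% of the 31 were higher against 16.0% of all genes tested, and 25.8% were lower against 15.6%. Calls were more frequent at high counts: at a mean of at least 10 CPM, 11 of 21 of these genes were called, against 37.1% of all genes at that level, a division chosen after the data were seen. In that range 23.8% of these genes were higher against 19.7% of all, and 28.6% were lower against 17.4%. The median log2 ratio of the 31 was 0.06, against -0.01 over all genes tested, and their median size of change was 0.144, against 0.138. The CPM values of the groups did not overlap for 15 of the 31 (48.4%), against 43.1% of all genes tested.

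The genes that rose were Itga5 and Itgb1, which together form the fibronectin receptor, Itgb5, a subunit of a vitronectin receptor, Utrn and Lamb2. Itgb1 is also the partner of the laminin-binding alpha subunits. Of the genes that fell, Itga3, Itga7, Dag1 and the scarce Itgb4, the partner of Itga6, encode laminin receptors or their subunits and Lama5 and Lamc1 laminin chains, and the others were Itgb7 and Itga4. Itga6, a laminin receptor, and Itgav, which binds RGD ligands, were both abundant and did not pass the test. Of the 13 called genes only Itgb7 changed by more than 2-fold.

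**Figure D2:**
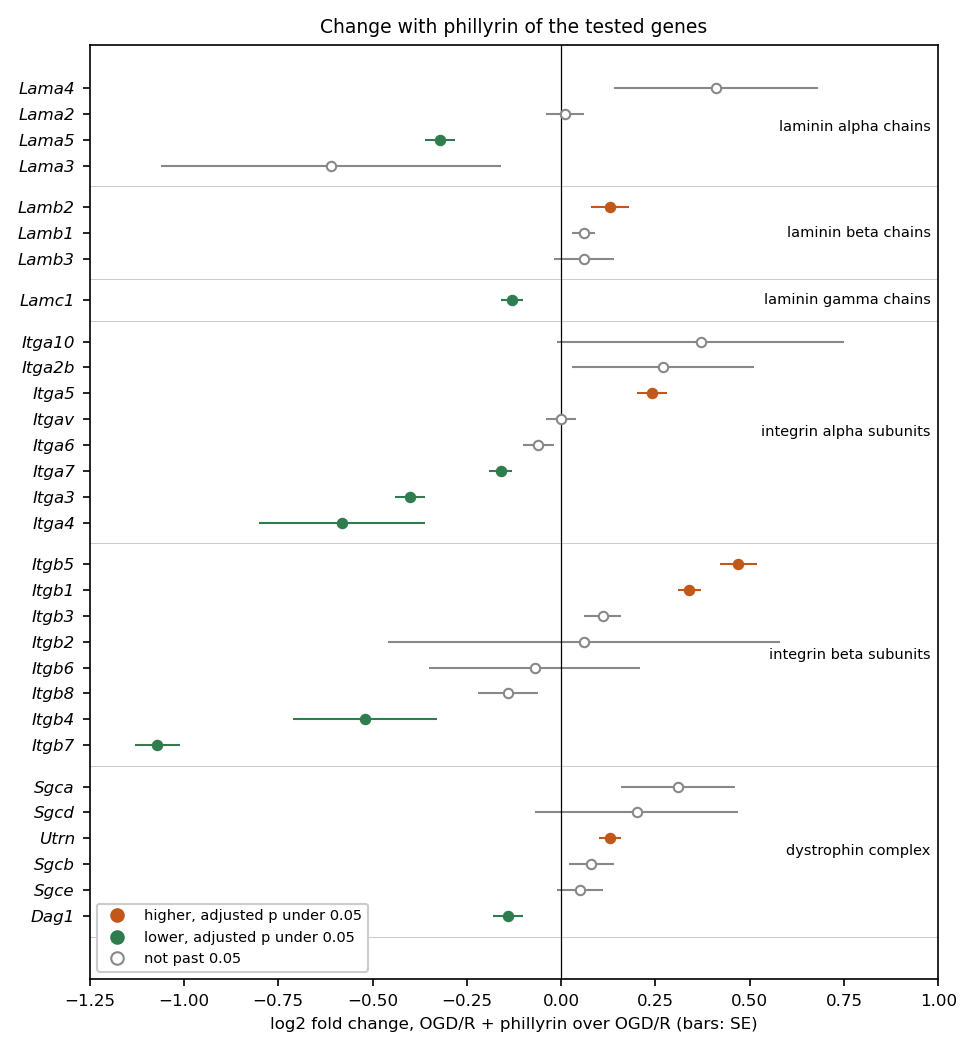
Log2 fold change of OGD/R + phillyrin over OGD/R with its SE for the tested genes reported, by class. Filled orange points rose and filled green points fell at an adjusted p under 0.05. Itgb7 lies farthest to the left at -1.07, and Itgb5 at 0.47 is the called gene farthest to the right.

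The promoters of the genes with the largest called changes are shown because genes of these related families moved in opposite directions. They are the 3 largest decreases (Itgb7, Itga3, Lama5) and the 3 largest increases (Itgb5, Itgb1, Itga5) among called genes with a mean of at least 10 CPM. Of the 40 genes 27 had a promoter in the RefSeq table, which runs from 250 bases before to 50 after an annotated start, with coordinates of build GRCm38.p6. Itga3 has 2 annotated starts, and the farther upstream is given. Which start these cells use was not measured. Capitals mark matches on either strand to the AP-1 motif TGANTCA, the TEAD motif GGAATG, the E-box CANNTG and the GC box GGGCGG, and motifs may overlap.
Itgb7, chr15:102231886-102232185, minus strand: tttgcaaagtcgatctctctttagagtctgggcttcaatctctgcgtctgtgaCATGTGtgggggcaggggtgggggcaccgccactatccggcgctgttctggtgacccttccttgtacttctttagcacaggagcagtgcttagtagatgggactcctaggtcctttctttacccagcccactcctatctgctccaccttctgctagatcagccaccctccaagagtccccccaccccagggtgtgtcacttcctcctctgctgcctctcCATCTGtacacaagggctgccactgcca
Itga3, chr11:95076665-95076964, minus strand: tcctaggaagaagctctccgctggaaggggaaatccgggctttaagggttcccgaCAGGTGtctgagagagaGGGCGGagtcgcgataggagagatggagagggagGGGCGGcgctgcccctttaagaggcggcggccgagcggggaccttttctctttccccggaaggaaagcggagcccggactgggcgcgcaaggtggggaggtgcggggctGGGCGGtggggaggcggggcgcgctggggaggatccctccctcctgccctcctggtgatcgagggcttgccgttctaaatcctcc
Lama5, chr2:180225810-180226109, minus strand: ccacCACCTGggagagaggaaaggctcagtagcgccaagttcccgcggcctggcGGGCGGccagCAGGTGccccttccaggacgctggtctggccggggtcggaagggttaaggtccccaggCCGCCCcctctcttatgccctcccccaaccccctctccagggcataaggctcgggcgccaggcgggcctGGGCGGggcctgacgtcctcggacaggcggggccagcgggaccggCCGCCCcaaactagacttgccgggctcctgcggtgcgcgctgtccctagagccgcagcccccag
Itgb5, chr16:33829415-33829714, plus strand: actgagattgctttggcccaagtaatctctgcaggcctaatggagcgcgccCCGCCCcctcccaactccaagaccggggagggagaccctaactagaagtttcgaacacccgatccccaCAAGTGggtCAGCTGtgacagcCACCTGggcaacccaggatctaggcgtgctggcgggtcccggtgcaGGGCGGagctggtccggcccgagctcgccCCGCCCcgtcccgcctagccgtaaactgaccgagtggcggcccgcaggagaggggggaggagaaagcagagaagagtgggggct
Itgb1, chr8:128685404-128685703, plus strand: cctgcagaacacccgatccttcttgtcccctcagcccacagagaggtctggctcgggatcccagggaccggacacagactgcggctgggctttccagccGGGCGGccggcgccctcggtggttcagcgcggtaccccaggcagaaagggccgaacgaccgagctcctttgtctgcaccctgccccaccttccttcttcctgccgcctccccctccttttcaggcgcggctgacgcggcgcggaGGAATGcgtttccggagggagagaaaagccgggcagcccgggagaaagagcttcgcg
Itga5, chr15:103366742-103367041, minus strand: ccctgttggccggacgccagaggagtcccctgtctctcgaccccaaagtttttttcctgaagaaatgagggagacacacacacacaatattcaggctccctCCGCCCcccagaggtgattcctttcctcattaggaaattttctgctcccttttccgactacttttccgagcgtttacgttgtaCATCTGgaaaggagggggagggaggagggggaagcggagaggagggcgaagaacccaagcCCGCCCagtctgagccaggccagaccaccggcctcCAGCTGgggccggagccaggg

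The Lama5 window held 4 GC boxes, those of Itgb5 and Itga3 3 each, Itga5 2, Itgb1 1 and Itgb7 0, where 35.7% of all 32851 RefSeq promoters hold at least 1. E-boxes, which occur in 72.3% of promoters, were found in all of these windows but that of Itgb1. The TEAD letters occurred once, in Itgb1 (14.7% of all promoters), and the AP-1 letters in 0 of the 6 windows (7.81% of all promoters), although the window at the other Itga3 start, not printed, held 1. Genes that rose and genes that fell thus both had windows with GC boxes and E-boxes. Base composition also differed, from 56.3% G and C in Itgb7 to 72.7% in Lama5. A match to a motif describes letters only and does not show that a factor binds.

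Of the 8 integrin alpha subunits tested, 1 rose and 3 fell (50.0% called, against 31.7% of all genes tested). Itga5 (ENSMUSG00000000555, chromosome 15, 103252713 to 103275190) had 425, 425 and 398 CPM in the phillyrin libraries, against 357, 336 and 366 CPM in the OGD/R libraries. The lowest phillyrin library was above the highest OGD/R library, and the log2 ratio was 0.24 (SE 0.04, edgeR adjusted p = 3.44e-06). Itga3 (ENSMUSG00000001507, chromosome 11, 94935300 to 94967627) had 138, 141 and 136 CPM with phillyrin and 184, 185 and 181 CPM with OGD/R alone. These groups were wide apart relative to their spread, with a log2 ratio of -0.40 (SE 0.04, edgeR adjusted p = 2.27e-10). Itga7 (ENSMUSG00000025348, chromosome 10, 128769645 to 128794155) had 486, 487 and 457 CPM with phillyrin and 546, 522 and 535 CPM with OGD/R alone. It fell by 0.16 on the log2 scale (SE 0.03, edgeR adjusted p = 0.000305), with no overlap between the groups.

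Itga6, the remaining laminin-binding subunit, had 346, 354 and 361 CPM with phillyrin and 381, 360.4 and 368 CPM with OGD/R alone. The groups touched, and its log2 ratio of -0.06 (SE 0.04) missed the threshold (edgeR adjusted p = 0.172), though it passed when libraries were scaled by their totals only (log2 ratio -0.11, adjusted p = 0.0135). Itgav had 335, 320.2 and 345 CPM with phillyrin and 319, 337 and 346 CPM with OGD/R alone, a log2 ratio of -0.00 (SE 0.04, edgeR adjusted p = 0.952). Itga4, which pairs with Itgb1 or Itgb7 on leukocytes and in developing muscle and binds Vcam1, was scarce at 2.22, 2.42 and 2.71 CPM with phillyrin and 3.35, 4.25 and 3.32 CPM with OGD/R alone. It fell (log2 ratio -0.58, SE 0.22, edgeR adjusted p = 0.0379), but the call was lost without phillyrin replicate 1 (adjusted p = 0.103), phillyrin replicate 2 (0.0888) or either of OGD/R replicates 1 (0.0502) and 2 (0.196), and with DESeq2 (0.0753). Itga2b, the platelet subunit, and Itga10 had log2 ratios of 0.27 (SE 0.24) and 0.37 (SE 0.38) at means of at most 2.77 CPM and did not pass.

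Of the 8 integrin beta subunits 2 rose and 2 fell (50.0% called, against 31.7% of all genes tested). Itgb1 (ENSMUSG00000025809, chromosome 8, 129412135 to 129459681) had 1386, 1385 and 1391 CPM with phillyrin and 1086, 1096 and 1096 CPM with OGD/R alone. The libraries of a group were nearly level, and the log2 ratio was 0.34 (SE 0.03, edgeR adjusted p = 3.77e-11). Itgb5 (ENSMUSG00000022817, chromosome 16, 33650035 to 33769708), which pairs with Itgav in a vitronectin receptor, had 111, 123 and 118 CPM with phillyrin and 85.4, 82.6 and 86.4 CPM with OGD/R alone. Its log2 ratio of 0.47 (SE 0.05, edgeR adjusted p = 7.10e-10) was the largest called increase among the 31 genes. Itgb3, the other main partner of Itgav, had 101, 97.2 and 110 CPM with phillyrin and 93.4, 97.7 and 94.4 CPM with OGD/R alone. The groups overlapped and it missed the threshold (log2 ratio 0.11, SE 0.05, edgeR adjusted p = 0.0983), except without phillyrin replicate 2 (adjusted p = 0.0320).

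Itgb7 (ENSMUSG00000001281, chromosome 15, 102124430 to 102140379) is best known from lymphocytes, where it pairs with Itga4 or Itgae in homing to the gut. It had 40.6, 42.1 and 42.7 CPM with phillyrin and 87.6, 84.3 and 91.4 CPM with OGD/R alone. The phillyrin libraries lay close together and far below the lowest OGD/R library, and the log2 ratio was -1.07 (SE 0.06, edgeR adjusted p = 1.80e-17). Its partners were scarce. Per length, Itgb7 was 86.5 ± 6.46 times as abundant as Itga4 with phillyrin and 124 ± 20.7 times with OGD/R alone, and Itgae stood at 0.934 ± 0.110 CPM with phillyrin and 0.985 ± 0.143 CPM with OGD/R alone (SD, n = 3 each). The leukocyte marker Ptprc had 11 counts over all 6 libraries, and Adgre1 and Itgam had 0, whereas Itgal had 51 and Cd68 319. Cd68 averaged 3.52 ± 0.899 CPM with phillyrin and 2.38 ± 0.419 CPM with OGD/R alone (SD, n = 3 each). Whether leukocytes contributed to Itgb7 was not tested. Itgb4, the hemidesmosome subunit that binds plectin, had 3.28, 4.93 and 3.06 CPM with phillyrin and 4.43, 5.45 and 6.68 CPM with OGD/R alone, with overlap. It fell (log2 ratio -0.52, SE 0.19, edgeR adjusted p = 0.0324), but not without phillyrin replicate 1 (adjusted p = 0.137), phillyrin replicate 3 (0.133), OGD/R replicate 2 (0.0771) or OGD/R replicate 3 (0.217), nor with DESeq2 (0.0675) or limma-voom (0.0507). Itgb8, Itgb6 and Itgb2 had log2 ratios of -0.14 (SE 0.08), -0.07 (SE 0.28) and 0.06 (SE 0.52) and did not pass.

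Of the 9 laminin chains tested 1 rose and 2 fell. That was 25.0% of the alpha, 33.3% of the beta and 50.0% of the gamma chains tested, against 31.7% of all genes tested. Lama5 (ENSMUSG00000015647, chromosome 2, 179818166 to 179867652) had 209, 209 and 185 CPM with phillyrin and 264, 243 and 247 CPM with OGD/R alone. The groups did not overlap, and the log2 ratio was -0.32 (SE 0.04, edgeR adjusted p = 3.05e-07). Lamc1 (ENSMUSG00000026478, chromosome 1, 153094668 to 153208532), the gamma chain of most laminins, had 356, 352 and 356 CPM with phillyrin and 385, 387 and 390.3 CPM with OGD/R alone. It fell by 0.13 on the log2 scale (SE 0.03, edgeR adjusted p = 0.00320), a small change that exceeded the very narrow spread of either group. Lamb2, the beta chain concentrated at the neuromuscular junction, had 112, 111 and 103 CPM with phillyrin and 100.2, 102 and 98.0 CPM with OGD/R alone. Its rise was slight (log2 ratio 0.13, SE 0.05, edgeR adjusted p = 0.0337) and was lost when libraries were scaled by their totals only (adjusted p = 0.175) and without phillyrin replicate 1 (0.0844) or 2 (0.0982) or OGD/R replicate 1 (0.0795), 2 (0.0668) or 3 (0.137).

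Lamb1, the most abundant laminin chain, had 571, 573 and 576 CPM with phillyrin and 562, 545 and 548 CPM with OGD/R alone, a log2 ratio of 0.06 (SE 0.03) that missed the threshold (edgeR adjusted p = 0.199) although the groups did not overlap. Lama2 had 98.6, 101 and 102 CPM with phillyrin and 101, 99.8 and 98.1 CPM with OGD/R alone, with a log2 ratio of 0.01 (SE 0.05). Its libraries were interleaved between the groups (edgeR adjusted p = 0.867). Lama4, typical of vessels, and Lama3 averaged at most 2.13 CPM, with log2 ratios of 0.41 (SE 0.27) and -0.61 (SE 0.45). Lamb3, which overlaps G0s2 and Hsd11b1 on the other strand, was at 0.06 (SE 0.08).

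Of the 6 dystrophin complex genes tested 1 rose and 1 fell (33.3% called, near the 31.7% of all genes tested). Utrn (ENSMUSG00000019820, chromosome 10, 12257932 to 12745109) had 372, 356 and 373 CPM with phillyrin and 337, 329 and 338 CPM with OGD/R alone. The groups did not overlap, and the log2 ratio was 0.13 (SE 0.03, edgeR adjusted p = 0.00281). Dag1 (ENSMUSG00000039952, chromosome 9, 108081833 to 108141157) had 153, 155 and 153 CPM with phillyrin and 173, 166 and 168 CPM with OGD/R alone. It fell by 0.14 on the log2 scale (SE 0.04, edgeR adjusted p = 0.00660), and the call was lost without OGD/R replicate 1 (adjusted p = 0.0560). The sarcoglycans did not pass. Sgca was at 0.31 (SE 0.15, edgeR adjusted p = 0.0978) and passed without OGD/R replicate 1 (adjusted p = 0.0384), and it overlaps H1f9, with 12 counts in all, on the other strand. Sgcb was at 0.08 (SE 0.06, edgeR adjusted p = 0.329) and passed without phillyrin replicate 2 (adjusted p = 0.0229), its lowest phillyrin library at 68.9 CPM, against 80.0 and 85.3 CPM in the others. Sgce and Sgcd were at 0.05 (SE 0.06) and 0.20 (SE 0.27).

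**Figure D3:**
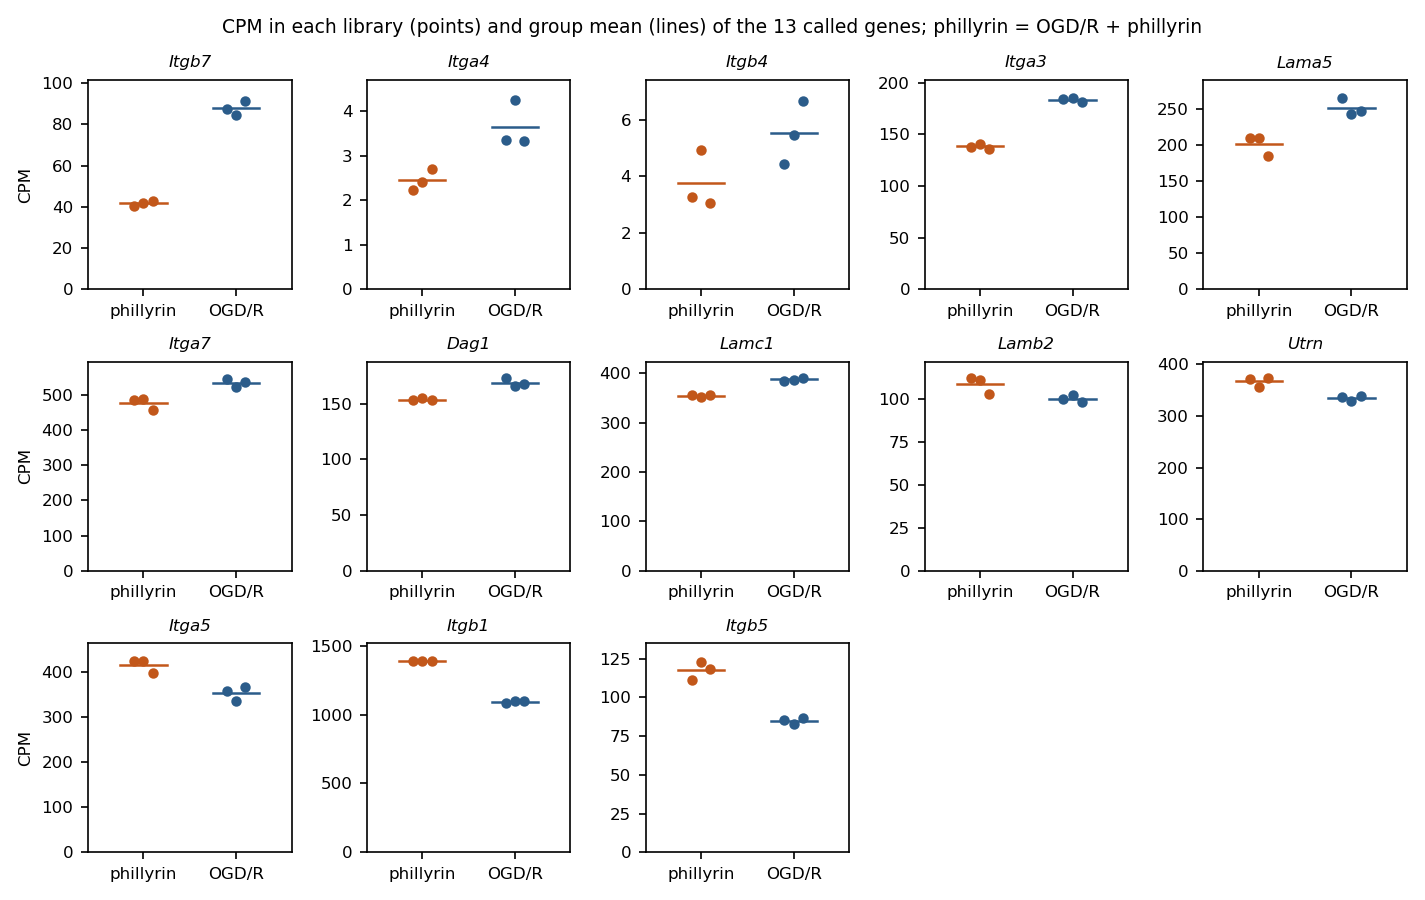
CPM in each library (points) and group mean (lines) of the 13 called genes, with OGD/R + phillyrin left of OGD/R and each axis starting at 0. The groups are apart in every panel but that of Itgb4, and the largest fold difference is that of Itgb7, at a mean of 41.8 CPM with phillyrin and 87.7 CPM with OGD/R alone.

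Shares within a class do not depend on how libraries are scaled, so they show how the RNA of receptor subunits and matrix chains was composed. The composition of the proteins, or of assembled receptors and laminins, was not measured. With 3 libraries against 3, the exact two-sided permutation test cannot give a p below 0.1, and each share said below not to overlap had that p. Itga5 took 35.8%, 35.9% and 34.7% of the alpha subunits' FPKM sum with phillyrin and 29.7%, 28.8% and 30.3% with OGD/R alone, without overlap. Grouped by ligand, a division added after the data were seen, the laminin-binding Itga3, Itga6 and Itga7 together took 50.7%, 51.3% and 51.2% with phillyrin and 57.8%, 57.5% and 56.2% with OGD/R alone. The subunits that bind RGD ligands took 48.7% ± 0.335 with phillyrin and 42.6% ± 0.872 with OGD/R alone (SD, n = 3 each). Most of that was Itga5, which differed by 5.86 points, against 6.09 for these subunits together and 0.19 for Itgav (exact permutation p = 0.8). Shares within a class add up to the whole, so the differences of Itga5 and of the ligand groups are not independent of each other. The ratio of Itga5 to the laminin-binding subunits was 0.707, 0.698 and 0.676 with phillyrin and 0.513, 0.501 and 0.539 with OGD/R alone.

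Among beta subunits Itgb1 took 83.2% ± 0.451 of the FPKM sum with phillyrin and 78.1% ± 0.404 with OGD/R alone, and Itgb7 took 3.70% ± 0.0714 with phillyrin and 9.24% ± 0.329 with OGD/R alone (SD, n = 3 each). Neither share overlapped between the groups. The order of the beta subunits changed below Itgb1. With phillyrin Itgb5 was second at 32.5 ± 1.65 FPKM, ahead of Itgb3 at 17.1 ± 0.939 and Itgb7 at 14.9 ± 0.298 FPKM. With OGD/R alone Itgb7 was second at 32.1 ± 1.27 FPKM, ahead of Itgb5 at 24.2 ± 0.563 and Itgb3 at 16.4 ± 0.371 FPKM. The order with OGD/R alone depended on the division by gene length. As shares of read counts Itgb3 was second there at 6.84%, ahead of Itgb7 at 6.30% and Itgb5 at 6.09%. With phillyrin the order was the same on both scales. The FPKM sum of all beta subunits was 402 ± 1.98 with phillyrin and 348 ± 1.70 with OGD/R alone, and that of all alpha subunits was 234 ± 6.28 with phillyrin and 245 ± 4.90 with OGD/R alone (SD, n = 3 each). Per gene length, Itgb1 alone thus exceeded the sum of the alpha subunits. The ratio was 1.43 ± 0.0288 with phillyrin and 1.11 ± 0.0253 with OGD/R alone. In read counts, not divided by length, Itgb1 lay below the sum of the alpha subunits in every library. FPKM is scaled by library totals. Scaled that way, the median log2 ratio of all genes tested was -0.06, against -0.01 in the main test. Differences between the groups in FPKM sums, here and for the laminins, carry that shift. The small difference in the alpha subunit sum was not read as a change.

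Of the laminin alpha chains Lama5 took 74.9%, 74.4% and 71.8% with phillyrin and 78.6%, 77.5% and 77.9% with OGD/R alone. Lama2 took 24.2%, 24.6% and 27.2% with phillyrin and 20.7%, 21.9% and 21.2% with OGD/R alone, so Lama2 had a higher share with phillyrin at a level whose change was not called. The shares of the beta chains overlapped between groups, with Lamb1 at 73.0% ± 0.739 with phillyrin and 73.8% ± 0.392 with OGD/R alone (SD, n = 3 each, exact permutation p = 0.2). The summed FPKM of the alpha chains was 23.6 ± 1.37 with phillyrin and 28.7 ± 1.11 with OGD/R alone, without overlap. The ratio of Utrn to Dag1 was 0.906, 0.856 and 0.908 with phillyrin and 0.722, 0.738 and 0.749 with OGD/R alone.

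**Figure D4:**
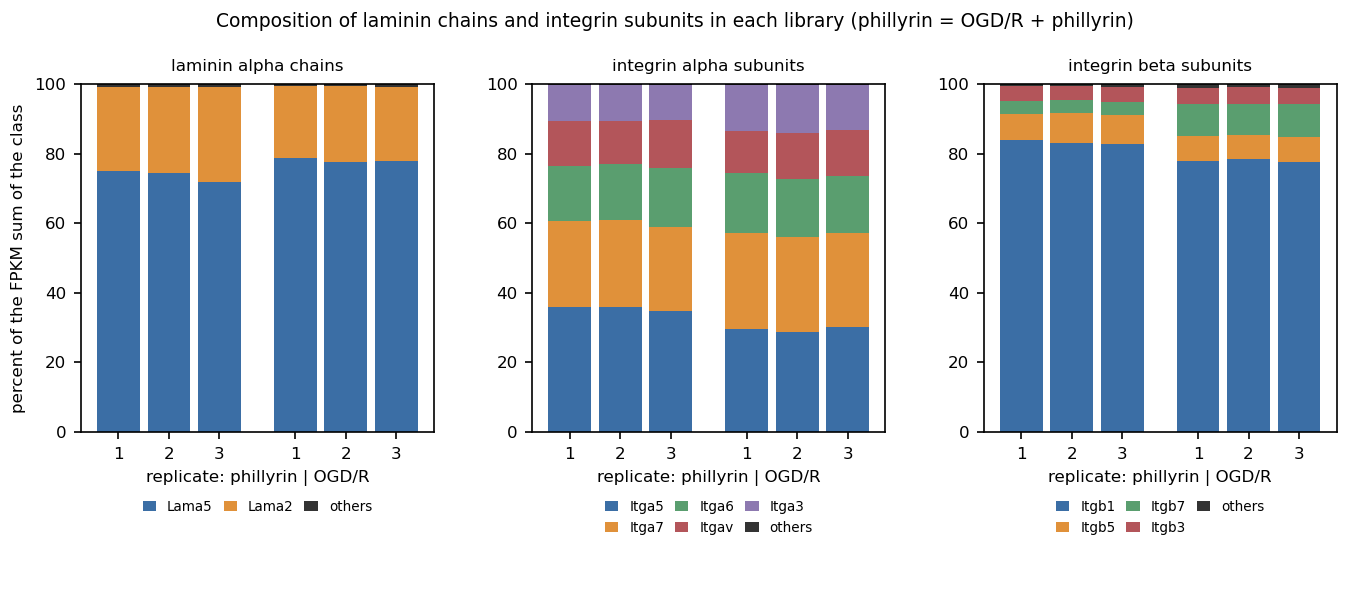
Percent of the FPKM sum of a class (laminin alpha chains, integrin alpha and beta subunits) taken by each chain or subunit, for each replicate of OGD/R + phillyrin (left of each panel) and OGD/R (right). Itga5 and Itgb1 hold larger shares in every OGD/R + phillyrin library, and Lama5, Itga3, Itga7 and Itgb7 smaller ones.

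Genes that work with these receptors changed in both directions. The partner lists were chosen with earlier results of these data known, so the shares called cannot be read as an excess. Of 12 tested ligands of integrins other than laminins, 5 rose and 4 fell, with a median log2 ratio of -0.05. That made 75.0% called, against 31.7% of all genes tested and 37.1% at a mean of at least 10 CPM. Ccn2, a matricellular protein, averaged 145 ± 6.74 CPM with phillyrin and 86.7 ± 2.99 CPM with OGD/R alone, and tenascin C (Tnc) 542 ± 5.43 CPM with phillyrin and 384 ± 13.4 CPM with OGD/R alone. Osteopontin (Spp1), an RGD ligand, fell to 1566 ± 136 CPM with phillyrin, against 2436 ± 11.2 CPM with OGD/R alone, and thrombospondin (Thbs1) to 367 ± 10.6 CPM with phillyrin, against 485 ± 8.31 CPM with OGD/R alone (SD, n = 3 each). All 4 had an edgeR adjusted p of at most 9.72e-12. Fibronectin (Fn1), looked up after the values were seen because it is the ligand of Itga5 with Itgb1, averaged 4974 ± 124 CPM with phillyrin and 3971 ± 83.1 CPM with OGD/R alone (log2 ratio 0.32, SE 0.03, edgeR adjusted p = 2.43e-10). Vcam1, a ligand of Itga4 read for the same reason, fell (log2 ratio -0.23, SE 0.05, edgeR adjusted p = 0.000420), and Madcam1, the ligand of Itga4 with Itgb7, was at or near 0. Periostin (Postn), a matricellular ligand of Itgav receptors chosen after its values were seen as the largest change of the list, averaged 10.2 ± 0.483 CPM with phillyrin and 3.11 ± 0.0981 CPM with OGD/R alone (log2 ratio 1.70, SE 0.15, edgeR adjusted p = 2.18e-11). Vitronectin (Vtn) had no count.

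Of 13 tested basement membrane partners of laminin 1 rose and 4 fell (38.5% called, against 31.7% of all genes tested and 37.1% at a mean of at least 10 CPM), with a median of -0.05. Nidogen (Nid1), which ties laminin to collagen IV, averaged 609 ± 10.5 CPM with phillyrin and 708 ± 2.47 CPM with OGD/R alone. Perlecan (Hspg2), which binds dystroglycan, averaged 348 ± 19.0 CPM with phillyrin and 442 ± 20.1 CPM with OGD/R alone (SD, n = 3 each). Ntn4, a laminin-related netrin, and the scarce Col4a4 also fell. Ntn4 averaged 25.3 ± 2.53 CPM with phillyrin and 35.0 ± 2.44 CPM with OGD/R alone, and Col4a4 0.597 ± 0.0618 CPM with phillyrin and 1.53 ± 0.379 CPM with OGD/R alone (SD, n = 3 each). The member that rose was Col4a1 (log2 ratio 0.11, SE 0.04, edgeR adjusted p = 0.0177), named after its value was seen. None of these partners rose when scaled by library totals only or without phillyrin replicate 2 or OGD/R replicate 1, 2 or 3, and 2 rose without phillyrin replicate 3.

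Of 27 tested focal adhesion genes, which couple integrins to actin, 4 rose and 9 fell, with a median of -0.04. Called were 48.1%, against 31.7% of all genes tested and 37.1% at a mean of at least 10 CPM. Tns2, a tensin that binds beta subunit tails, averaged 136 ± 9.43 CPM with phillyrin and 174 ± 6.57 CPM with OGD/R alone. The actin crosslinkers moved apart: Actn1 averaged 528 ± 7.22 CPM with phillyrin and 469 ± 2.30 CPM with OGD/R alone, and Actn4 415 ± 12.6 CPM with phillyrin and 476 ± 3.11 CPM with OGD/R alone. Tgfb1i1, a paxillin relative, fell by 0.26 on the log2 scale (SE 0.05, edgeR adjusted p = 6.47e-05). Scaled by library totals only, 2 of these genes rose, and 2 also rose without phillyrin replicate 2 or either of OGD/R replicates 2 and 3, while 4 fell without OGD/R replicate 1. Ilk, the integrin-linked kinase, had 0.146 ± 0.0335 CPM with phillyrin and 0.103 ± 0.00607 CPM with OGD/R alone (SD, n = 3 each). It overlaps Rrp8 and Taf10 on the other strand, and how reads over overlapping genes were assigned is not given in the sources used here, so its level was not read.

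Of 10 tested partners of the dystrophin complex 3 rose and 5 fell, with a median of -0.24. The share called was 80.0%, against 31.7% of all genes tested and 37.1% at a mean of at least 10 CPM. Plectin (Plec), a linker of intermediate filaments to Itgb4 and dystroglycan, averaged 1243 ± 32.6 CPM with phillyrin and 1777 ± 51.3 CPM with OGD/R alone (log2 ratio -0.52, SE 0.03, edgeR adjusted p = 3.43e-15). Dystrobrevin (Dtna), which binds dystrophin and utrophin, averaged 25.5 ± 1.52 CPM with phillyrin and 34.3 ± 2.03 CPM with OGD/R alone (SD, n = 3 each). The ankyrins Ank3 and Ank2 had log2 ratios of -0.33 (SE 0.07) and 0.23 (SE 0.06), with edgeR adjusted p values of 0.000229 and 0.00508. Scaled by library totals only, 1 of these partners rose, and 1 also rose without OGD/R replicate 2 or 3, while 3 fell without phillyrin replicate 2 or either of OGD/R replicates 1 and 2, and with DESeq2. Of 16 tested enzymes that build the laminin-binding sugars of dystroglycan 2 rose and 1 fell (18.8% called, below the 31.7% of all genes tested), with a median of -0.08. B3galnt2, which extends the O-mannose glycan of dystroglycan, averaged 61.5 ± 3.77 CPM with phillyrin and 49.3 ± 1.59 CPM with OGD/R alone (SD, n = 3 each; log2 ratio 0.32, SE 0.06, edgeR adjusted p = 6.47e-05). The count of higher enzymes was 1 when scaled by library totals only, and likewise on leaving out phillyrin replicate 2 or either of OGD/R replicates 2 and 3. The decrease of Dpm2, part of the enzyme that makes the mannose donor (log2 ratio -0.21, SE 0.08, edgeR adjusted p = 0.0364), was lost in 6 of 13 alternative settings, among them those without phillyrin replicate 3 or OGD/R replicate 2 or 3, where 0 of these enzymes fell. Of the integrins outside the naming pattern, Itgae and Itgb2l were tested and neither passed.

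**Figure D5:**
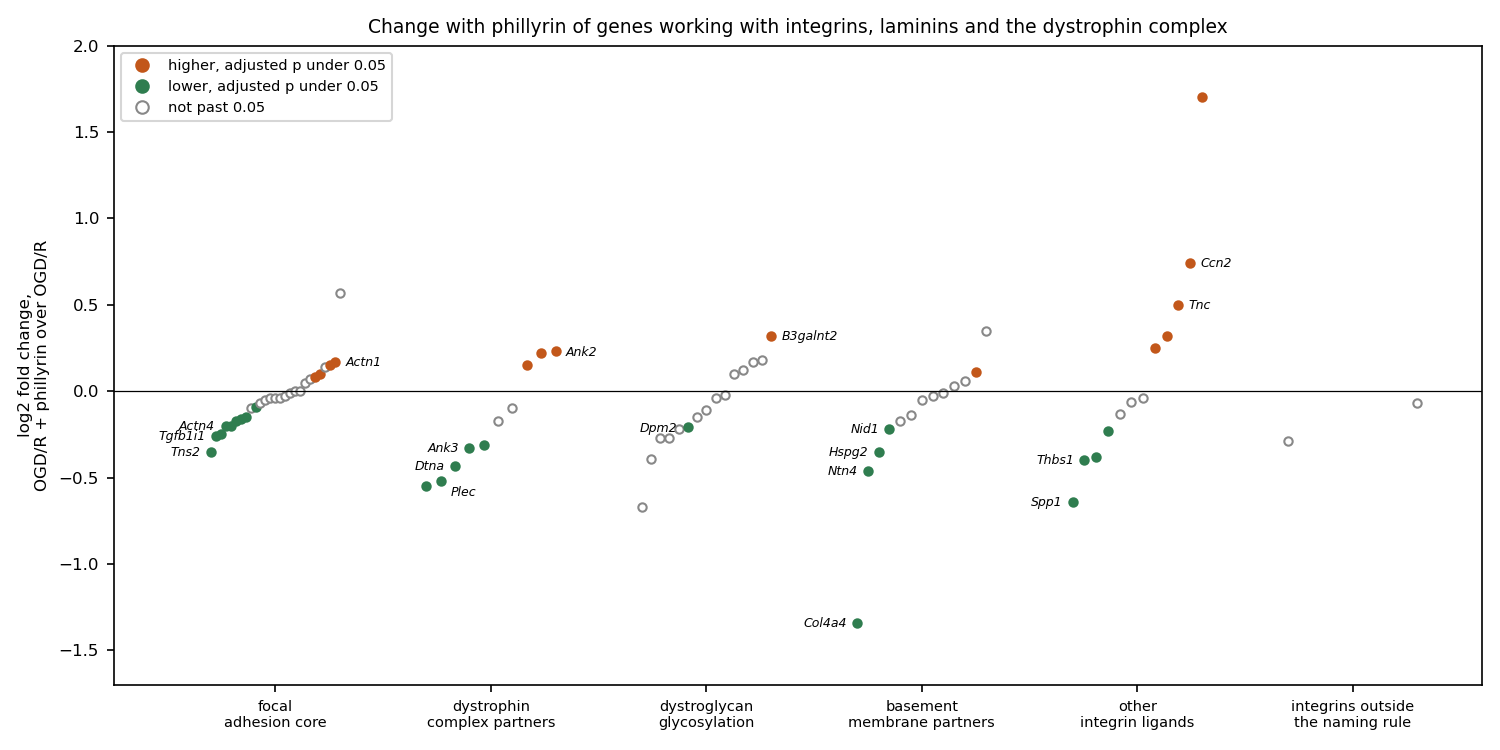
Log2 fold change of OGD/R + phillyrin over OGD/R for the tested genes of the partner lists that are reported, ordered by value within a list, with filled points past an adjusted p of 0.05. Called genes lie on both sides of 0 in every list with calls, and Plec, Hspg2, Nid1 and Spp1 are among those below it.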

How the data were processed

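Per the file headers, each library has a deposited column of read counts and another of FPKM. The submitters' processing notes name featureCounts 2.0.3, HISAT2 2.2.1, Trimmomatic 0.39, DESeq2 1.34.0 and the build GRCm39, without roles or a strand setting. The FPKM deposited by the authors equalled count over length and library total to a relative difference of 2.43e-07, and served for levels per length and shares. The deposited counts were filtered (filterByExpr), TMM-normalised and tested with edgeR's robust quasi-likelihood test (edgeR 4.0.16, limma 3.58.1, R 4.3.3), two-sided, adjusted by Benjamini-Hochberg over 11658 genes at a threshold of 0.05. The test was checked on simulated counts. CPM used TMM-scaled totals. Columns were matched by sample title, since the description names 1 column for all phillyrin libraries. Gene coordinates are those of the table. Limits for 0 counts (3 counts) cover counting error only.

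The genes, partner lists and marker lists were chosen with earlier results of these data known. Values per library are given for genes past the threshold with a mean of at least 1 CPM and for the most abundant gene of each class, and up to 4 genes with the smallest p from each partner list. Other named genes were chosen after their values were seen. Some genes that these rules select are counted but not reported here. Nothing says that replicates were separate cultures, so p-values measure the spread between libraries, which may be technical. Replicate pairs differed by more than sampling noise, with a mean chi-square per gene of 2.04 to 5.31. Alternatives were RLE factors, library totals only, DESeq2 1.42.0, limma-voom, other low-count filters, each library left out and the replicate number as a block.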

Additional observations from a re-analysis of the deposited data

How the results depend on the processing

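None of the 13 called integrin, laminin and dystrophin complex genes changed direction in any of the 13 alternative settings. Itgb7, Itga3, Lama5, Itga7, Lamc1, Utrn, Itga5, Itgb1 and Itgb5 were called in all 13, Dag1 in 12, Itga4 in 8, Itgb4 in 7 and Lamb2 in 7. With 1 library left out, 4 to 6 of the 31 tested genes of these families were higher and 6 to 7 lower. Whole-table counts then ran from 1434 to 1899 higher and 1412 to 1668 lower. Replicate numbers did not pair the libraries (correlations of deviations 0.003, 0.006 and 0.003), and the replicate block called the same 13 genes (5 higher, 8 lower), with 1867 higher and 1842 lower over the table.

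Counts moved by over 1.5 times in 4 of the partner lists. Scaled by library totals only, focal adhesion had 2 higher (against 4), dystrophin partners 1 (against 3), dystroglycan glycosylation 1 (against 2) and basement membrane 0 (against 1). Lower glycosylation calls (1) numbered 4 by library totals only, 0 without the low-count filter, 2 at a mean of at least 1 CPM, 2 with the replicate block and 0 with DESeq2, which gave 3 lower dystrophin partners (against 5). With 1 library left out, focal adhesion ranged over 2 to 4 higher and 4 to 9 lower, dystrophin partners 1 to 3 higher and 3 to 4 lower, glycosylation 1 to 3 higher and 0 to 1 lower, and basement membrane 0 to 2 higher. As shares of read counts, Itga5 differed by 4.30 points (5.86 per length), Itgb1 by 4.26 (5.15) and Itgb7 by -3.81 (-5.54). The causes were not tested. Precision is limited for genes of a few CPM, and 3 libraries per group bound every exact test.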
